A study of Mus musculus with 6 samples.

Results

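The transcripts described here are 9 genes used to mark fibroblasts in the heart other than by their collagens, namely Pdgfra, Tcf21, Dpt, Gsn, Medag, Pcolce, Cd248, Meox1 and Fap. They were taken by symbol from the 54532 genes of the expression table, and every symbol matched a single row. All 9 had reads in all 6 libraries, and 8 were abundant enough to be tested among 10460 genes, Fap being the exception. The RNA came from the myocardium of wild-type C57BL/6 mice of 18 weeks with hypertrophic hearts. In 3 control samples (EGFP) the mice had received AAV9, an adeno-associated virus that reaches heart muscle well, carrying EGFP, a fluorescent protein. In the other 3 (TuD) the AAV9 carried anti-miR-199a tough decoys, RNA hairpins built to capture a microRNA so that fewer of its targets are repressed. Sex, the cause of the hypertrophy, the viral dose and promoter, and whether each sample was a separate animal are not given in the labels, so every p-value measures only the spread between these samples. No group without virus or without hypertrophy was analysed here.

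Cardiac fibroblasts are the interstitial cells that make and turn over the matrix between the muscle cells. At rest they are recognised by a set of transcription factors, surface receptors and secreted matrix proteins, and after injury some of them become myofibroblasts, which contract and lay down collagen. None of the 9 genes is strictly restricted to fibroblasts: pericytes, mesothelial cells, adipocyte precursors and muscle cells share some of them. Because whole myocardium was sequenced, fewer cells of a type and less RNA per cell cannot be told apart in these values.

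Levels are given as normalised FPKM, fragments per kilobase of gene and per megareads (M) of the library after a small rescaling of each library. They are per gene length as deposited, which need not be that of the transcript expressed, so comparisons of level between genes are approximate. Differences are log2 fold changes, TuD minus EGFP, on log2 of the normalised FPKM plus 0.5, with the standard error (SE) from limma and a p-value adjusted by the Benjamini-Hochberg method over all 10460 genes. A gene is called higher or lower where this adjusted p is below 0.05. Of all tested genes, 29.3% were called, 15.0% higher (1565 genes) and 14.3% lower (1498 genes). When FPKM was rescaled to TPM the median gene moved by -0.36 on the log2 scale and the split became 438 higher and 4202 lower, so values under TPM are given below as differences from that median as well. The EGFP libraries held 18.0 to 18.2 M reads and the TuD libraries 15.2 to 16.7 M, so depth differed between the groups. The library size implied by the FPKM was 1.04 to 1.06 times these reads in the EGFP group and 0.943 to 1.01 times in the TuD group. Summed transcripts of 4 Y-linked genes were 8.32 to 9.59 FPKM in the controls and 12.5 in TuD replicate 3, but 0.0254 and 0.00711 in TuD replicates 1 and 2. No control resembled these 2 TuD libraries in this, and once the difference is entered as a covariate only TuD replicate 3 informs the effect of treatment.

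Of the 8 tested fibroblast genes, 3 were higher in the TuD hearts and none was lower, nor was any lower at an unadjusted p below 0.05. The 3 were Tcf21, Dpt and Medag, with ratios of the group means of 1.45, 1.28 and 1.92. The share called higher among all tested genes was 15.0%. The median log2 fold change of the 8 genes was +0.29, against +0.01 for all tested genes, and 7 of the 8 values lay above 0, as did 5322 of the 10460. In 3 of the 8 the EGFP and TuD samples did not overlap, a separation seen in 47.9% of all tested genes. Under TPM the median of the 8 was -0.08, which is +0.28 above the median gene, 3 values lay above 0, and 1 gene was called, lower (Cd248).

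**Figure D1:**
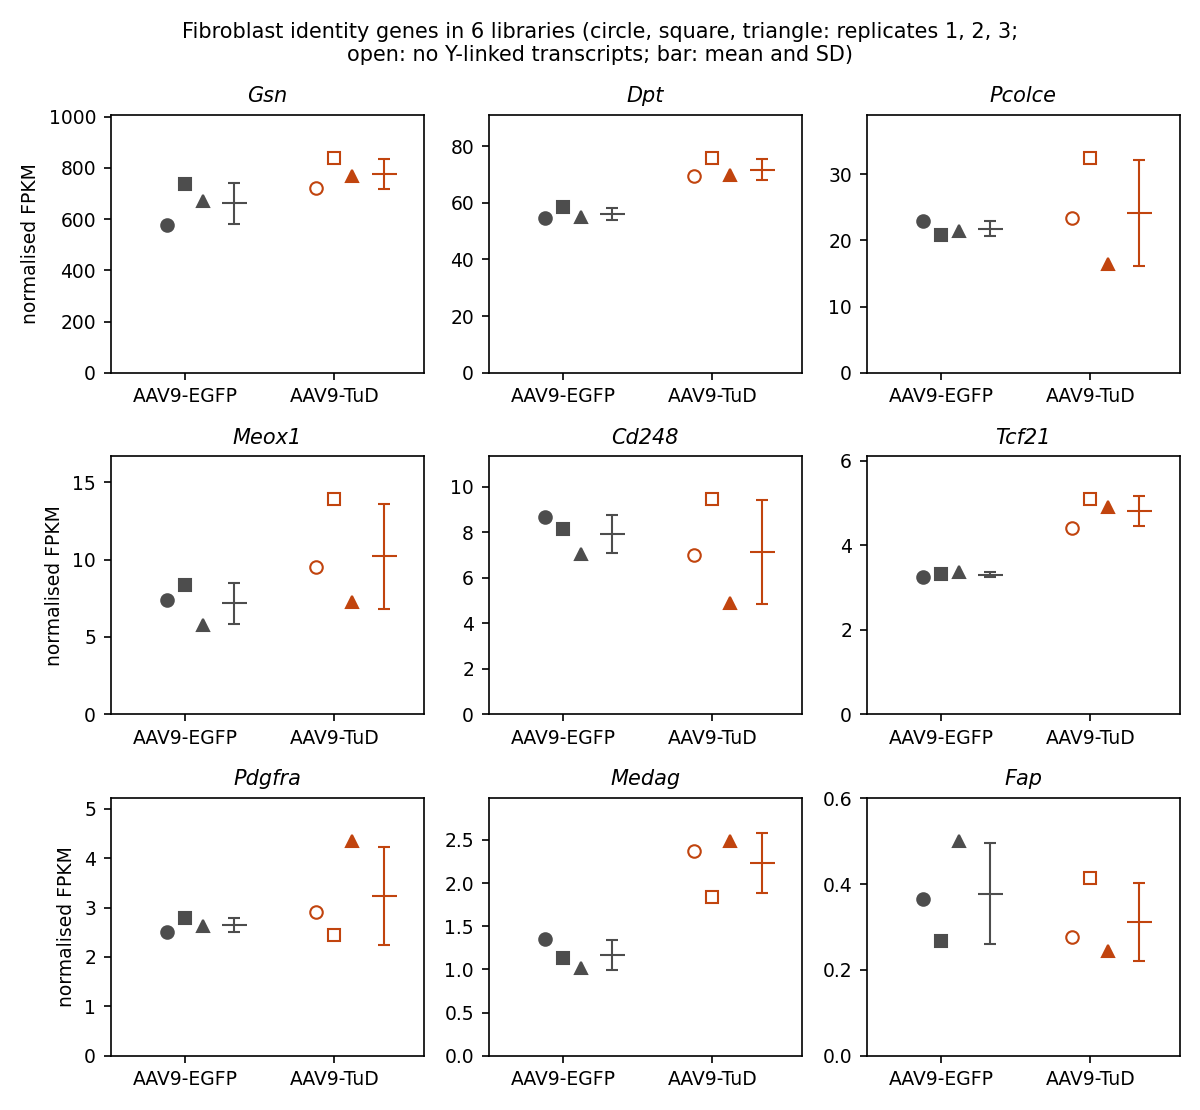
Normalised FPKM of the 9 fibroblast genes on linear axes from 0, 1 panel per gene, with each sample as a point and the mean and SD of its group as a bar beside the points. The 3 TuD points of Tcf21, Dpt and Medag all lie above the 3 EGFP points, whereas the groups overlap for the other 6 genes.

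The decoys are directed at miR-199a, whose hairpin is encoded at 2 loci, Mir199a-1 on chromosome 9 and Mir199a-2 on chromosome 1. Both give the same pair of mature strands, shown because their seeds, bases 2 to 8 from the 5′ end and in capitals, define which transcripts could carry a matching site (RefSeq, GRCm38.p6; miR-199a-5p lies at chr1:162217844-162217866 on the + strand and chr9:21496537-21496559 on the - strand, miR-199a-3p at chr1:162217883-162217904 on the + strand and chr9:21496498-21496519 on the - strand).
miR-199a-5p: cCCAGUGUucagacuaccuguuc
miR-199a-3p: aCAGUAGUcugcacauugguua
The libraries did not measure mature microRNA, and the hairpins had 0 to 2 reads (Mir199a-1) and 0 reads (Mir199a-2) per library, so the action of the decoys could not be checked from them.

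The longest annotated 3′ untranslated region of each gene (GENCODE M21, GRCm38) was searched on the transcribed strand for sites of 7 bases, ACACTGG or CACTGGA for miR-199a-5p and ACTACTG or CTACTGA for miR-199a-3p. The overlapping pair ACACTGG and CACTGGA read as a single longer site is an 8mer. Pdgfra and Medag held such sites and the other 7 genes held none. The 4 sites are printed with 8 bases on each side and the matching bases in capitals.
Pdgfra, miR-199a-5p site, chr5:75196547-75196569, + strand: gttcagaaACACTGGcttgggtt
Pdgfra, miR-199a-3p site, chr5:75195757-75195779, + strand: ataacactACTACTGtttaacaa
Medag, miR-199a-5p site, chr5:149430405-149430427, + strand: caacctgcCACTGGAatgaacat
Medag, miR-199a-5p site, chr5:149430625-149430648, + strand: accatggtACACTGGAcatcaggg
A miR-199a-5p site was present in 25.1% of the 9552 tested genes with an annotated 3′ untranslated region, and a miR-199a-3p site in 14.8%. Among regions close in length to that of Medag (1812 bases) the share with a miR-199a-5p site was 31.1%, and for Pdgfra (3115 bases) the shares were 44.9% and 28.9% for the 2 strands. Of the 2402 tested genes with a miR-199a-5p site 8.87% were called higher, against 14.9% of the 7150 without, and of the 485 with an 8mer 9.48% were called higher. The shares called lower were 20.5% with a site and 13.0% without. For miR-199a-3p, 8.43% of the 1411 genes with a site and 14.2% of the 8141 without were called higher, and 16.9% and 14.5% lower. The share of genes with a site was larger for longer regions, as given above, and these shares are not adjusted for length. Medag, which holds the 8mer, is among the genes called higher, and Pdgfra, with a site for each strand, is not. A match in letters is a description and does not show that the microRNA binds there.

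The transcription factors come first. Tcf21 (ENSMUSG00000045680, chr10:22817281-22820174 on the - strand) encodes a basic helix-loop-helix factor that the fibroblast lineage of the epicardium requires. Its level was 3.25, 3.32 and 3.36 normalised FPKM in EGFP replicates 1, 2 and 3, and 4.41, 5.09 and 4.91 in TuD replicates 1, 2 and 3. The lowest TuD sample exceeded the highest control, and the controls lay within a narrow band. The means were 3.31 ± 0.0563 and 4.80 ± 0.354 (SD, n = 3 each), and the log2 fold change was +0.48 ± 0.11 (SE, 95% confidence interval 0.23 to 0.72; limma, adjusted p = 0.0138). These values rest on 144 to 192 reads per library. The call ended under TPM (log2 fold change +0.14, adjusted p = 0.452; +0.50 above the median gene) and with the Y-linked covariate (+0.51, adjusted p = 0.0628).

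Meox1 (ENSMUSG00000001493, chr11:101877510-101894374 on the - strand) encodes a homeobox factor that is switched on in activated fibroblasts. Its level was 7.42, 8.34 and 5.76 normalised FPKM in the EGFP samples and 9.53, 13.9 and 7.23 in TuD replicates 1, 2 and 3. Replicates 1 and 2 of the TuD group lay above every control and replicate 3 lay among the controls. The log2 fold change was +0.45 ± 0.23 (SE, 95% confidence interval -0.07 to 0.97), close to that of Tcf21 but with an adjusted p of 0.167. Its size depended on single libraries. It was +0.66 without TuD replicate 3, past the threshold at an adjusted p of 0.0376, but +0.21 (adjusted p = 0.426) without TuD replicate 2 and +0.02 (adjusted p = 0.953) with the Y-linked covariate.

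The receptor and surface proteins did not pass the test. Pdgfra (ENSMUSG00000029231, chr5:75152292-75198215 on the + strand) encodes the alpha receptor for platelet-derived growth factors, used to sort cardiac fibroblasts. Its level was 2.5, 2.78 and 2.63 normalised FPKM in the EGFP samples and 2.90, 2.45 and 4.36 in the TuD samples. TuD replicate 3 was high and replicate 2 was below every control, so the groups overlapped. The log2 fold change was +0.22 ± 0.18 (SE, 95% confidence interval -0.20 to 0.64, adjusted p = 0.390), and under TPM it was -0.12, which is +0.23 above the median gene. TuD replicate 3 carried the difference: without it the log2 fold change was +0.01 (adjusted p = 0.942), and with the Y-linked covariate, which rests on that library, it was +0.63 (adjusted p = 0.0475).

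Cd248 (ENSMUSG00000056481, chr19:5068078-5070637 on the + strand) encodes endosialin, a membrane protein of fibroblasts and pericytes. Its level was 8.65, 8.13 and 7.03 normalised FPKM in the EGFP samples and 7.02, 9.45 and 4.91 in the TuD samples, which thus spanned the whole control range. The log2 fold change was -0.19 ± 0.21 (SE, 95% confidence interval -0.66 to 0.29, adjusted p = 0.529). It was the only tested gene of the 9 with a value below 0, and without TuD replicate 3 it was +0.04. Under TPM it was -0.57 (adjusted p = 0.0363), or -0.22 relative to the median gene.

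Fap (ENSMUSG00000000392, chr2:62500943-62574075 on the - strand) encodes fibroblast activation protein, a surface serine protease of activated fibroblasts. Its level was 0.365, 0.268 and 0.502 normalised FPKM in the EGFP samples and 0.278, 0.415 and 0.244 in the TuD samples, from 23 to 54 reads per library. The groups overlapped, with means of 0.378 ± 0.117 and 0.312 ± 0.0906 (SD, n = 3 each). An exact two-sided permutation test of the difference gave p = 0.6, the smallest p that 3 samples against 3 allow being 0.1. In a limma fit with no filter on low values the log2 fold change was -0.11 ± 0.14 (SE, adjusted p = 0.678).

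**Figure D2:**
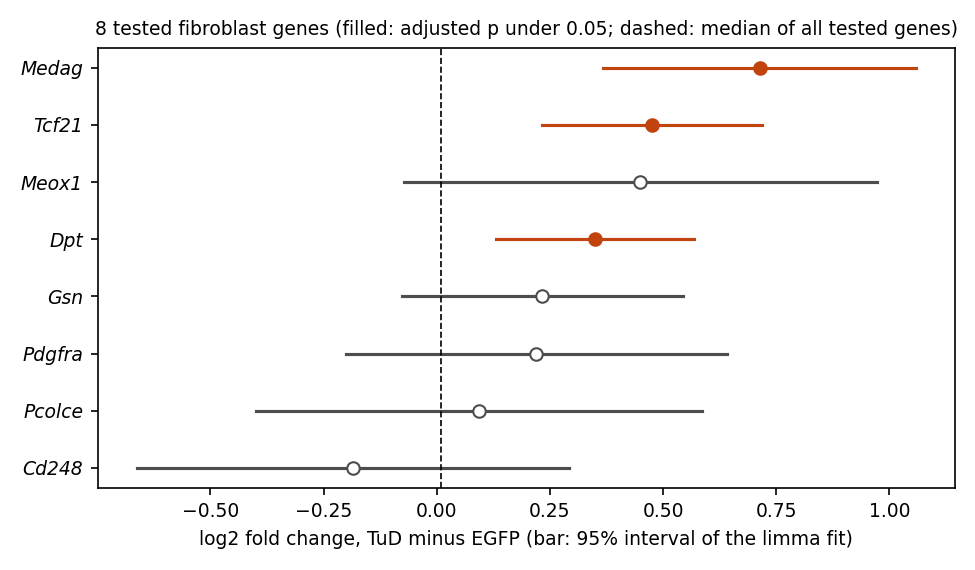
Log2 fold change (TuD minus EGFP, horizontal axis) of each fibroblast gene with its 95% confidence interval from limma, filled where the adjusted p is below 0.05. The intervals of Tcf21, Dpt and Medag lie above 0 and those of the other 5 tested genes include 0.

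Of the secreted proteins, Dpt (ENSMUSG00000026574, chr1:164796644-164824266 on the + strand) encodes dermatopontin, a small matrix protein that binds decorin and collagen fibrils and marks resting fibroblasts in many organs. Its level was 54.6, 58.6 and 55.1 normalised FPKM in the EGFP samples and 69.3, 75.8 and 69.8 in the TuD samples. All 3 TuD samples lay above all 3 controls, and within each group the samples were close together. The means were 56.1 ± 2.13 and 71.6 ± 3.66 (SD, n = 3 each), with a log2 fold change of +0.35 ± 0.10 (SE, 95% confidence interval 0.13 to 0.57; adjusted p = 0.0282) from 1778 to 2001 reads per library. The call ended in 11 of 22 alternatives, more than that of Tcf21 or Medag. Without EGFP replicate 1, 2 or 3 the adjusted p was 0.0816, 0.0676 or 0.106, and without TuD replicate 1 or 2 it was 0.0617 or 0.0576. It was 0.303 when a trend with gene length was removed (+0.12 against the reported +0.35), and Dpt, at 1724 bases, is shorter than all but 17.3% of tested genes. Under TPM its log2 fold change was -0.04, which is +0.32 above the median gene.

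Pcolce (ENSMUSG00000029718, chr5:137605103-137613784 on the - strand) encodes an enhancer of the protease that cuts the C-terminal propeptide from fibrillar procollagens. Its level was 23.0, 20.9 and 21.5 normalised FPKM in the EGFP samples but 23.5, 32.5 and 16.4 in the TuD samples. The lowest and the highest of the 6 values were both TuD samples. The log2 fold change was +0.09 ± 0.21 (SE, 95% confidence interval -0.40 to 0.59, adjusted p = 0.770), and its sign turned under TPM (-0.29, or +0.07 above the median gene), on leaving out TuD replicate 2 (-0.14) and with Y-linked transcripts as a covariate (-0.39).

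The last pair act inside the cell. Gsn (ENSMUSG00000026879, chr2:35256380-35307892 on the + strand) encodes gelsolin, which severs and caps actin filaments and also has a secreted plasma form. It was by far the most abundant of the 9, at 578, 738 and 669 normalised FPKM in the EGFP samples and 721, 839 and 767 in the TuD samples. TuD replicate 1 lay below the highest control, so the groups overlapped. The means were 662 ± 79.9 and 776 ± 59.4 (SD, n = 3 each), and the log2 fold change was +0.23 ± 0.14 (SE, 95% confidence interval -0.08 to 0.54, adjusted p = 0.220). With 34459 to 46006 reads per library, counting error is small beside the spread between samples. The sign turned under TPM (-0.15, or +0.20 above the median gene) and under quantile normalization (-0.20).

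Medag (ENSMUSG00000029659, chr5:149411749-149431723 on the + strand) encodes a cytoplasmic protein that promotes adipocyte differentiation and takes its name from the adipose tissue of the mesentery. Its level was 1.35, 1.13 and 1.01 normalised FPKM in the EGFP samples and 2.37, 1.84 and 2.49 in the TuD samples. No TuD sample fell into the control range, and the controls lay just above the FPKM of 1 that the test required. The means were 1.16 ± 0.174 and 2.23 ± 0.349 (SD, n = 3 each), and the log2 fold change of +0.71 ± 0.15 (SE, 95% confidence interval 0.37 to 1.06; adjusted p = 0.0114) was the largest of the 8, from 76 to 164 reads per library. Under TPM it was +0.48 with an adjusted p of 0.0701, or +0.84 above the median gene.

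Adipocyte markers were set beside Medag. Adiponectin (Adipoq) had 1, 0 and 0 reads in the EGFP samples and 19, 11 and 5 in the TuD samples. Cidec, a lipid droplet gene, was at 0.0285 to 0.0567 normalised FPKM in the controls and at 0.356 to 1.31 in the TuD samples, and the adipokine gene Cfd at 0.0571 to 0.747 and at 3.32 to 9.53. Of the 7 adipocyte markers 2 were tested and 1 of them, Cfd, was called higher (adjusted p = 0.00418), having passed the filter only through the TuD samples. The summed level of all 7 was 33.4 to 38.8 in the controls and 27.0 to 47.4 in the TuD samples, but 1 gene, Plin4, which is also made outside fat, supplied most of it, at 32.6 to 38.3 and 22.5 to 40.3. Adipoq, Cidec, Cfd and Retn were each higher in all 3 TuD samples than in any control. A separation in either direction was seen in 47.9% of all tested genes, a share that leaves out genes below the filter, such as Adipoq, Cidec and Retn. For Plin1, Lep and Plin4 the groups overlapped. Cidec had 1 to 2 reads in the controls and 10 to 37 in the TuD samples, and Retn 0 to 2 and 2 to 19. Lep had 0, 3 and 0 reads in the EGFP samples and 0, 0 and 1 in the TuD samples. The part of adipocytes in the difference of Medag was not tested.

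**Figure D3:**
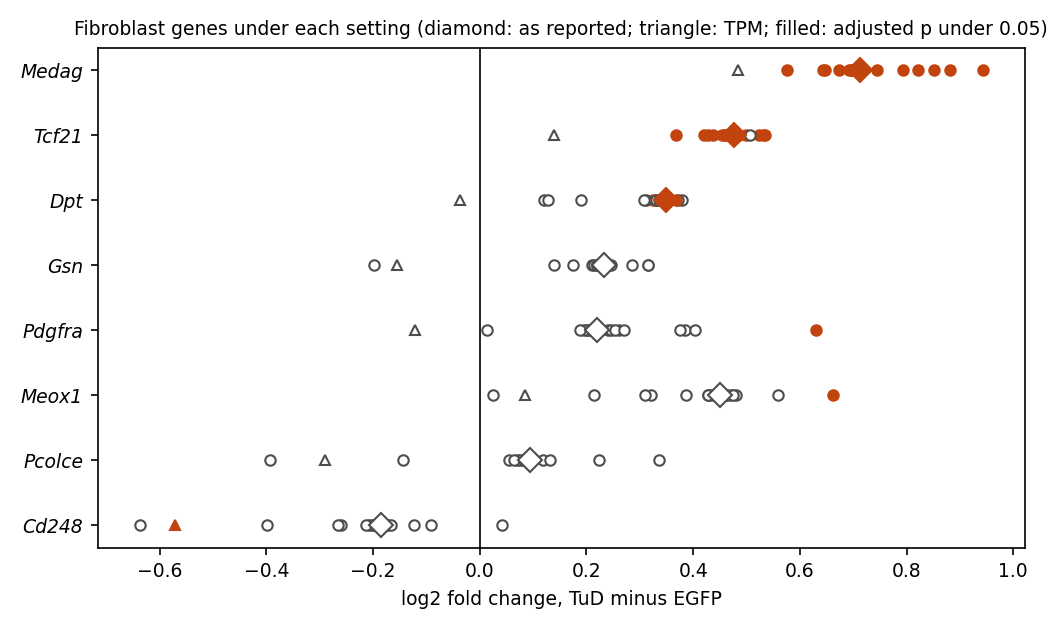
Log2 fold change of each tested fibroblast gene under the main analysis and under the alternatives, filled where the adjusted p is below 0.05; the diamond is the value reported and the triangle that under TPM. For each gene the triangle lies to the left of the diamond, and all points of Tcf21, Medag and Meox1 lie above 0.

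Promoter sequences were compared because Tcf21 belongs to a family of factors that bind E-boxes, CANNTG, a motif that reads as the same pattern on both strands. RefSeq (GRCm38.p6) supplied windows of 300 bases, from 250 before to 50 after a transcript start, for 6 of the 9 genes. The windows below are those of the 3 genes that were called higher, with the first of 2 windows for Medag, and of Pcolce, which equalled Dpt in its number of E-boxes. E-boxes are in capitals.
Dpt promoter, chr1:164796413-164796712, + strand: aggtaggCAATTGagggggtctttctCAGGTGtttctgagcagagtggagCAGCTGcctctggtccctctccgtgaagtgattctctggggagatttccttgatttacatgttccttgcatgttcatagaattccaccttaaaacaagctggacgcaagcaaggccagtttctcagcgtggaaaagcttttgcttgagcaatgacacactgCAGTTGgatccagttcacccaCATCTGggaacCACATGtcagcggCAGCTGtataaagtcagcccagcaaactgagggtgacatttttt
Pcolce promoter, chr5:137611355-137611654, - strand: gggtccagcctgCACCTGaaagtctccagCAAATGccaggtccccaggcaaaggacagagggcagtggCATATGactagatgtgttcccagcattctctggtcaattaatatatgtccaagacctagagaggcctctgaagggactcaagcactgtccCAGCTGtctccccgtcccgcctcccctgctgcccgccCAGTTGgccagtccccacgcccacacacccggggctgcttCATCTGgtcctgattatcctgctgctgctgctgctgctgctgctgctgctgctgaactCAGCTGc
Tcf21 promoter, chr10:22820094-22820393, - strand: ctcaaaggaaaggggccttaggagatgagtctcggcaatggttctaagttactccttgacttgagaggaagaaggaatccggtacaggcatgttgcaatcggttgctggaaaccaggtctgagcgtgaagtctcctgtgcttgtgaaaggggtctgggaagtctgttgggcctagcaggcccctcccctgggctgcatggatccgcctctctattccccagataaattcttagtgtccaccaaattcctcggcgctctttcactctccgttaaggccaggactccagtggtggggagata
Medag promoter, chr5:149411499-149411798, + strand: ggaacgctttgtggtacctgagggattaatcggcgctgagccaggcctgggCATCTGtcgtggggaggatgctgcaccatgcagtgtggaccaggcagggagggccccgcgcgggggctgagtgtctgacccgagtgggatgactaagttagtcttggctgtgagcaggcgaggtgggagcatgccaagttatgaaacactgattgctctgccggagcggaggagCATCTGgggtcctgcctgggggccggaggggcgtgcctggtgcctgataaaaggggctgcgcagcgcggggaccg
An E-box was present in 72.3% of 32851 promoter windows, and CAGCTG, included in the same pattern, in 16.3%. The windows of Dpt and Pcolce each held 7 E-boxes, of which 2 were CAGCTG, and as many as 7 occurred in 0.177% of all windows. The window of Tcf21 held none, and those of Medag held 2 in the first and 1 in the second, at chr5:149413588-149413887. The 2 genes with the most E-boxes thus differed in their result, Dpt having been called higher and Pcolce not. These are matches of letters, not measured binding.

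In order of level the genes ran Gsn, Dpt, Pcolce, Meox1, Cd248, Tcf21, Pdgfra, Medag and Fap, from 776 normalised FPKM for Gsn to 0.312 for Fap in the TuD means. Gsn stood above Dpt, and Dpt above Pcolce, in every library. The neighbours Meox1 and Cd248 overlapped in both groups, and Cd248 and Tcf21, and Pdgfra and Medag, overlapped among the TuD samples only.

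The TuD samples differed more among themselves than the controls for several genes. Within the TuD group the highest spread was that of 4 tested genes that were not called. Spread within groups enters the test itself, so this is not a separate result. The coefficient of variation of Pcolce was 5.03% in the EGFP group and 33.3% in the TuD group, that of Pdgfra 5.35% and 30.8%, that of Cd248 10.4% and 31.9%, and that of Meox1 18.2% and 33.2%. Among the genes called higher it was 1.70% and 7.37% for Tcf21, 3.79% and 5.11% for Dpt and 15.0% and 15.6% for Medag. For Gsn and Fap it was lower in the TuD group, at 12.1% and 7.66% for Gsn and 31.0% and 29.0% for Fap. The difference in spread between the groups was not tested, with 3 samples in each.

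The spread had a pattern by library. TuD replicate 2 was the highest of its group for 7 of the 9 genes, and TuD replicate 3 for the other 2, Pdgfra and Medag, for which replicate 2 was the lowest. Replicate 3 was the lowest for Pcolce, Cd248, Meox1 and Fap. Averaged over the 8 tested genes, the log2 deviation from the control mean was +0.26, +0.43 and +0.19 in TuD replicates 1, 2 and 3, and 0.01, 0.06 and -0.07 in the EGFP samples. In TuD replicates 1, 2 and 3 the genes above the control mean were 7, 7 and 6 of the 8. In EGFP replicates 1, 2 and 3 they were 4, 6 and 2, so EGFP replicate 2 equalled TuD replicate 3 in this count. TuD replicate 3, which was low for Pcolce, Cd248 and Meox1, is also the TuD library with Y-linked transcripts, and it had 90.8 normalised FPKM of the atrial light chain Myl7, against 1.44 and 1.29 in TuD replicates 1 and 2 and 0.178 to 0.269 in the controls. The part of atrial tissue or of the Y-linked difference in these values was not tested.

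**Figure D4:**
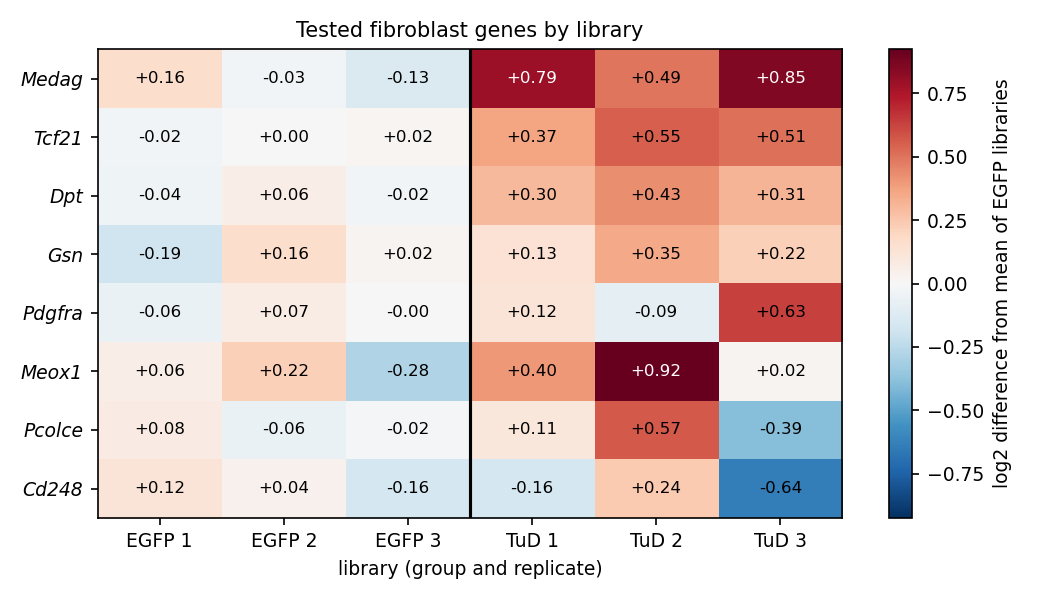
Heat map of the log2 difference of each tested fibroblast gene (rows) from its EGFP mean in each of the 6 libraries (columns), red above and blue below 0. TuD replicate 2 is high for Meox1 and Pcolce, and TuD replicate 3 is high for Pdgfra and low for Cd248 and Pcolce.

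Likeness of profile was measured as the root-mean-square difference between log2 values over the 6 samples, each gene centred on its own mean. Among the tested fibroblast genes Tcf21 and Dpt were the most alike (0.0798), followed by Dpt and Gsn (0.10). Pcolce and Cd248 differed by 0.158, and Medag and Cd248 were the farthest apart (0.575). Across the 9594 protein-coding genes compared, the nearest to Tcf21 were Rtraf (0.0231) and Eif2b3 (0.0236), and the nearest to Dpt were Dnajc15 (0.0318) and Polr2c (0.0320). The nearest to Gsn were Syngr1 (0.0255) and Ptcd2 (0.0356), and to Pdgfra Tecrl (0.0456) and Tcp11l2 (0.0643). Cd248 was nearest to Rrp9 (0.0425) and Mrc2 (0.0757). Medag was nearest to Trpm7 (0.0671) and Trappc6b (0.0740). Pcolce was nearest to Jam3 (0.0675) and Sh3tc2 (0.0690), and Meox1 to Nat14 (0.0548) and Pkn3 (0.0899). None of these nearest genes was another of the 9.

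Other genes of resting fibroblasts were mixed in direction. Of 30 such genes 29 were tested, 4 were called higher, 2 lower and 23 neither, with a median log2 fold change of +0.15 (-0.23 under TPM, +0.13 above the median gene). Among all tested genes 15.0% were called higher and 14.3% lower, shares that also stand beside the counts of the lists below. Under TPM the calls of the 29 turned to 1 higher and 5 lower. Ly6a, which encodes the stem cell antigen Sca-1 and is also made by endothelial cells, rose from 106 ± 6.58 to 217 ± 30.1 normalised FPKM (SD, n = 3 each; log2 fold change +1.03, adjusted p = 0.00248). Mfap5, a microfibril protein, rose from 6.59 ± 0.957 to 12.9 ± 3.88 (SD, n = 3 each; +0.88, adjusted p = 0.0209). Lum (+0.73, adjusted p = 0.0292), a small proteoglycan, and Dkk3 (+1.04, adjusted p = 0.0463) were also higher and are named because of their values. Only 1 of the 3 controls of Dkk3 (0.915, 2.47 and 0.83 normalised FPKM) reached the level the filter asks for, so it was tested because of the TuD samples (2.13, 3.52 and 4.15). Gata4, a transcription factor shared by fibroblasts and muscle cells, fell from 51.4 ± 2.94 to 25.4 ± 0.914 (SD, n = 3 each; -1.0, adjusted p = 0.00194), and the laminin chain Lamc1 fell from 26.7 to 19.5 (-0.44, adjusted p = 0.0188). The calls of Ly6a and Gata4 held in all 22 alternatives, whereas that of Dkk3 ended in 11, those of Mfap5 and Lum in 7 each and that of Lamc1 in 6. Among these were omissions of single libraries, namely EGFP replicates 1 and 3 for all 4 genes, EGFP replicate 2 for Lum, TuD replicate 1 for Mfap5 and Lamc1, TuD replicate 2 for Mfap5 and Dkk3, and TuD replicate 3 for Dkk3. The adjusted p was then 0.0618 to 0.0677 for Mfap5, 0.0562 to 0.0873 for Lum, 0.098 to 0.134 for Dkk3 and 0.0622 to 0.0644 for Lamc1. Without EGFP replicate 1 or 3 the list had 1 gene higher and 1 lower, without TuD replicate 1 it had 3 and 1, and without TuD replicate 2 it had 2 and 2.

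Of 8 fibroblast collagen chains none was called higher, 2 were lower and 6 were not called, with a median log2 fold change of -0.52. Under TPM 7 were lower (median -0.92, or -0.56 relative to the median gene). Without TuD replicate 2 there were 4 lower, Col1a1 (-0.82, adjusted p = 0.0282) and Col3a1 (-0.99, adjusted p = 0.032) joining the pair, and limma-voom on the recovered reads also called 4. With the length and GC correction none was called. Col1a2, a chain of type I collagen, fell from 15.1, 13.7 and 14.0 to 7.88, 11.0 and 7.0 normalised FPKM (-0.72, adjusted p = 0.0133). Col5a1 fell from 7.89, 5.22 and 6.58 to 3.73, 4.06 and 3.72 (-0.69, adjusted p = 0.0125). Neither gene's groups overlapped, and for Col1a1 the difference was -0.61 with an adjusted p of 0.0661. The difference in direction between the collagens and the 9 genes was not itself tested. The Col1a2 call ended when the trend with gene length was removed (adjusted p = 0.0677), and that of Col5a1 with length and GC removed (-0.42, adjusted p = 0.0849). With the Y-linked covariate Col5a1 missed the threshold at an unreduced difference (-0.73, adjusted p = 0.0632).

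Of 20 genes of activated fibroblasts 10 were tested and limma called none in either direction, with 1 at an unadjusted p below 0.05 and none called by limma-voom on the recovered reads. Without TuD replicate 3, however, Acta2, the actin of myofibroblasts and smooth muscle (+0.66, adjusted p = 0.0424), and Timp1, an inhibitor of matrix proteases (+1.04, adjusted p = 0.0378), were called higher. The 10 had a median of +0.10, which under TPM was -0.25 with 1 gene, Ddah1, lower. Postn, which encodes periostin, the usual myofibroblast marker, was at 2.09, 2.83 and 1.61 normalised FPKM in the controls and 2.32, 3.60 and 1.40 in the TuD samples (+0.09 ± 0.28 SE, adjusted p = 0.836). Of the 10 genes below the filter, Lox was at 0.347 to 0.416 in the controls and 0.719 to 1.67 in the TuD samples, from 33 to 134 reads. Spp1, at 4 to 10 reads, was also higher in every TuD sample than in any control. A separation of the groups in either direction was seen in 47.9% of all tested genes, a share that leaves out genes below the filter. For the rest of the untested genes of the list the groups overlapped. With no filter none of the 20 was called, 2 being higher and 1 lower at an unadjusted p below 0.05. The summed level of the 20 genes was 118 to 158 in the controls and 105 to 229 in the TuD samples, which enclosed the control range. Acta2, which smooth muscle also makes, supplied most of this sum, at 112, 77.5 and 75.3 in the EGFP samples and 119, 158 and 54.1 in the TuD samples. It is also part of the sum for pericytes and smooth muscle given below.

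Around Pdgfra, 11 of 12 genes of platelet-derived growth factor signalling were tested, and 1 was higher, 1 lower and 9 not called (median -0.11). Under TPM 8 were lower. The ligand Pdgfd rose from 3.68 to 5.15 (+0.43, adjusted p = 0.0493), a call that ended in 16 alternatives, and the adaptor Shc1 fell from 7.49 to 5.58 (-0.40, adjusted p = 0.0223), a call that ended in 6. The ligands Pdgfa (-0.14) and Pdgfb (-0.08) and the beta receptor Pdgfrb (0.00) were not called. Leaving out single libraries (EGFP replicate 1, 2 or 3 or TuD replicate 1 or 2 for Pdgfd, EGFP replicate 2 or 3 or TuD replicate 1 for Shc1) gave adjusted p-values of 0.0683 to 0.146 for Pdgfd and 0.0718 to 0.0829 for Shc1. Around Pcolce, 10 of 15 genes that process or modify procollagen were tested and 1 was lower, the lysyl hydroxylase Plod2, which fell from 2.46 to 1.38 (-0.65, adjusted p = 0.0208), a call that ended in 5 (adjusted p = 0.0617 to 0.0705 without EGFP replicate 1 or 2 or TuD replicate 2). Without TuD replicate 2 the genes called lower were 3 others, P4ha1, Plod1 and Serpinh1 (-0.82, -0.70 and -0.89), which were also those called with the Y-linked covariate, and without EGFP replicate 1 or 2 there were none. Under TPM 8 of the 10 were lower. The paralogue Pcolce2 was at 5.23 and 5.25 in the 2 groups, and Bmp1, the protease that Pcolce enhances, at 3.94 and 3.69.

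Around Fap, 7 of 8 related proteases were tested, of which 2 were lower and none higher. These were Dpp9, a dipeptidyl peptidase inside the cell, which fell from 11.6 to 6.85 (-0.72, adjusted p = 0.00574), and the prolyl endopeptidase Prep, which fell from 5.87 to 4.15 (-0.45, adjusted p = 0.0193). Of 6 relatives of Gsn 3 were tested and all 3 were called, in both directions, where 29.3% of all tested genes were called. The capping protein gene Capg rose from 6.98 to 12.4 (+0.77, adjusted p = 0.0166), while Svil fell from 21.7 to 13.1 (-0.73, adjusted p = 0.0169) and Flii fell from 38.7 to 29.7 (-0.38, adjusted p = 0.0315). With no filter none of the 6 was called, the adjusted p of these 3 being 0.0551 to 0.0578. With the Y-linked covariate the log2 fold change was +0.41 for Capg and -0.49 for Svil. The Dpp9 call held in all 22 alternatives, and those of Prep, Capg, Svil and Flii ended in 5, 5, 4 and 9. Without EGFP replicate 1 or 2 the adjusted p was 0.0519 and 0.0764 for Prep and 0.0525 and 0.0513 for Svil, and without EGFP replicate 2 or 3 it was 0.0624 and 0.052 for Capg. For Flii it was 0.0572 to 0.106 when EGFP replicate 1, 2 or 3 or TuD replicate 1 or 3 was left out.

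**Figure D5:**
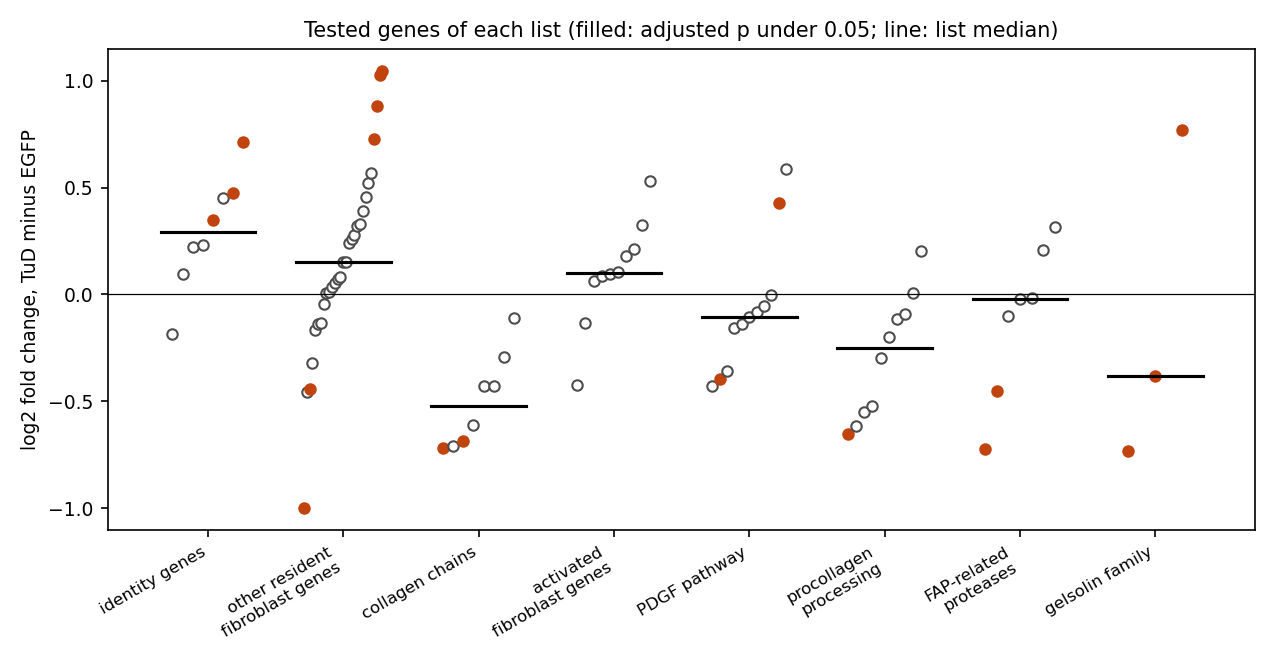
Log2 fold change (TuD minus EGFP, vertical axis) of the tested genes of each list, 1 point per gene, with a line at the list's median, filled where the adjusted p is below 0.05. All 8 collagens lie below 0 with a median of -0.52, and the 8 tested fibroblast genes mostly above it with a median of +0.29.

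Markers of other cells were read in the same samples. Of 10 cardiomyocyte markers 4 were higher and none lower (median +0.41), namely Tnnt2, Myl2, Pln and Tnni3, and their summed level was 30413 to 32488 normalised FPKM in the controls and 33170 to 39218 in the TuD samples. Of 10 endothelial markers Egfl7 and Fabp4 were higher and none was lower (median +0.29), and the summed ranges were 299.7 to 375 and 367 to 519. Of 10 markers of pericytes and smooth muscle, which also make Cd248, Rgs5 and Kcnj8 were higher and Abcc9 and Notch3 lower, with sums of 191 to 239 and 189 to 328. Of 10 macrophage markers 9 were tested and limma called none (median +0.41), with 2 at an unadjusted p below 0.05, 1 called by limma-voom (C1qa) and sums of 273 to 336 and 282 to 561. Without TuD replicate 1 there were 4 macrophage markers higher, C1qa, C1qb, C1qc and Cd68 (+0.67 to +0.86). With the Y-linked covariate, which rests on TuD replicate 3, the log2 fold changes of these 4 were +0.88 to +1.17. In that fit Cd163 and Mrc1 stood at +0.96 and +1.06. Entering replicate number as a block also brought C1qa below the threshold (adjusted p = 0.042), as did testing only genes that reached FPKM 5 (0.0392). Mesothelial cells, which share several fibroblast genes, left little RNA: Lrrn4 and Muc16 were at 0 in every library, Msln was at 0 to 0.124, and the 7 markers summed to 1.16 to 1.49 and 1.30 to 1.82. Of 6 Schwann cell markers 1 was tested and it was lower, Prnp, a gene also made by many other cells. Under TPM 2 cardiomyocyte and 2 endothelial markers were lower and 2 of each were higher, and the endothelial median was -0.10. Under quantile normalization none of the cardiomyocyte markers was higher and 1 was lower. Leaving out EGFP replicate 2 ended the calls of Tnnt2 (adjusted p = 0.0565) and Myl2 (0.0619), and leaving out any 1 of the EGFP replicates that of Tnni3 (0.0542 to 0.0916). The calls of Kcnj8 (0.0564 to 0.0848) and Abcc9 (0.059 to 0.14) ended when any 1 of the EGFP replicates or TuD replicate 1 was left out, that of Abcc9 also without TuD replicate 2, and that of Prnp (0.0562 to 0.106) without EGFP replicate 2 or 3 or TuD replicate 1 or 2. The part of these cells in the differences of the fibroblast genes was not tested.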

How the data were processed

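Total RNA from frozen myocardium was sequenced in 6 libraries, 3 per group, and samples were grouped by the labels. The authors deposited FPKM per gene with each gene's length, and per the submitters' processing notes used HISAT2 2.0.5, mm10 and featureCounts 1.5.0-p3. The strand setting and annotation release are not given in the sources used here. Multiplying FPKM by length recovered reads that were whole to 0.05 for 100% of the values above 0. Genes overlapping the 9 had at most 8 reads.

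Each library was scaled by a median-of-ratios size factor (0.985 to 1.02, from genes with an FPKM of at least 1 in all 6 samples). Genes with FPKM of at least 1 in at least 3 samples were tested with limma 3.58.1 (R 4.3.3; lmFit, eBayes with a mean-variance trend, two-sided) on log2 of normalised FPKM plus 0.5. The 9 genes, the lists and the rule for named genes were chosen with earlier results of these data known. That rule took all 9 genes, up to 4 tested genes per list by p-value and the defining genes of a cell type. It also took the 2 protein-coding genes closest in profile to each of the 9 that was tested, thus none for Fap. Lum, Dkk3, Cidec, Retn, Plin1, Lep, Myl7, Postn, Lox, Spp1, Pdgfa, Pdgfb, Pdgfrb, Pcolce2, Bmp1 and some list genes named for a call under an alternative only are outside that rule, picked with their values in view. Fap, below the filter, was tested by exact permutation in scipy 1.17.1. Alternatives comprised 22 settings of scaling, pseudocount, filter, variance model, covariates and omitted libraries. The code was tested on simulated data. Python 3.11.15, numpy 2.4.6, pandas 2.3.3 and matplotlib 3.10.9 were used.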

Additional observations from a re-analysis of the deposited data

How the results depend on the processing

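The 3 calls among the fibroblast genes were recomputed under 22 alternatives, of which 1, size factors from all genes above 0, was chosen after seeing the data. Medag kept its call in 20 of 21 and Tcf21 in 19 of 21, both being left untested by a filter at FPKM 5, and Dpt lost its call in 11 of 22. The number of genes called, 3063 in the main analysis, was 4640 under TPM, 1966 with no filter, 1180 with the Y-linked covariate and 1639 to 3309 when 1 library was left out, lowest without EGFP replicate 2. Of the fibroblast genes 3 were called in the main analysis, 1 under TPM and 1 under the filter at FPKM 5, which tests fewer genes, and 2 to 4 when 1 library was left out. The companion lists, from collagens and other resting fibroblast genes to relatives of Gsn, had 8, 29, 10, 11, 10, 7 and 3 tested genes. Of these 16 genes were called, where 29.3% of all tested genes were called. The count was 34 under TPM, 8 with no filter, 9 with the length correction and 9 with the length and GC correction. It was 7 to 18 when 1 library was left out, lowest without EGFP replicate 1. Among all tested genes 2524 were called with the length correction and 2148 with length and GC corrected. Signs turned under TPM for Pdgfra (-0.12), Dpt (-0.037), Gsn (-0.15) and Pcolce (-0.29), under quantile normalization for Gsn (-0.20), and with Y-linked transcripts as a covariate for Pcolce (-0.39). Leaving out 1 library gave -0.14 (without TuD replicate 2) to +0.34 (without TuD replicate 3) for Pcolce and -0.40 (without TuD replicate 2) to +0.041 (without TuD replicate 3) for Cd248. The causes were not tested.

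Besides the settings given above, Dpt lost its call at a smaller difference under quantile normalization (+0.19, adjusted p = 0.0974) and with length and GC corrected (+0.13, 0.262), and at nearly the same difference with Y-linked transcripts as a covariate (+0.31, 0.146). Whether the replicate numbers pair the samples is not given in the labels. Deviations of same-numbered samples correlated at 0.06, 0.09 and -0.06, and those of differently numbered samples at -0.16 to 0.09. Such values cannot tell whether the samples were paired by design. With the replicate block 2661 genes, 3 fibroblast genes and 17 genes of the companion lists were called, Dpt leaving (adjusted p = 0.0543) and Meox1 entering (0.0472). Depth limits Fap most.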

Other observations

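Dnm3os, the long noncoding RNA that hosts Mir199a-2 (chr1:162217623-162225550 on the + strand), was looked up after the data had been seen. It had 3, 1 and 2 reads in EGFP replicates 1, 2 and 3 and 14, 4 and 3 in TuD replicates 1, 2 and 3, too few to test, and counting error alone is large at these numbers.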
